A study of Mus musculus with 33 samples.

Results

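Genes of cytosolic nucleic acid sensing and NF-kB signalling were followed in mouse liver RNA. The 10 genes were chosen by name: Tmem173, Polr3d, Tbk1, Ikbke, Irf3, Ikbkg, Nfkb1, Rela, Nfkbia and Trex1. Earlier results of these data were known when the genes and the further lists were chosen, so counts among them are descriptions. Of these, 9 were found in the count table of 25988 genes, and all 9 passed the filter on low counts. Trex1, an exonuclease that degrades DNA in the cytosol, is not analysed here.

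The 33 libraries were made with 3' QuantSeq, which sequences a tag near the 3' end of each transcript, from livers of male C57BL/6J mice. Of these, 9 came from shChREBP/L-G6pc-/- and 8 from shSCR/L-G6pc-/- livers, and the genotype controls gave 8 shChREBP/L-G6pc+/+ and 8 shSCR/L-G6pc+/+ libraries. All mice carried floxed G6pc alleles, whose product glucose-6-phosphatase releases glucose from the liver and is lost in glycogen storage disease type Ia. All received an AAV with a short hairpin RNA, against ChREBP (shChREBP) or scrambled (shSCR), and then tamoxifen, and livers were taken 10 days after the last injection from nonfasted animals. L-G6pc-/- mice also carried a tamoxifen-activated Cre (SA-creERT2) that acts in hepatocytes, whereas their L-G6pc+/+ littermates had no Cre. The mice were 13 to 18 weeks old at infection. Since nothing in the labels ties a library to its own mouse, n is the number of libraries, and p-values measure the spread between libraries, which may be technical.

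In this pathway, DNA in the cytosol is bound by the sensor cGAS, whose product activates STING, the membrane adaptor encoded by Tmem173. STING recruits the kinase TBK1, which phosphorylates the transcription factor IRF3, and it also feeds into NF-kB. RNA polymerase III can copy cytosolic DNA into RNA that the RIG-I receptor recognises. In resting cells NF-kB dimers such as RelA with p50 are held in the cytosol by IkB-alpha, and they are freed when a kinase complex built on the scaffold NEMO (Ikbkg) marks IkB-alpha for degradation. In the liver, STING is known mainly from macrophages and other non-parenchymal cells. Because whole liver was sequenced, fewer cells of a type and less RNA per cell cannot be told apart.

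Of these genes, Nfkbia is itself a known NF-kB target, and the stretch before its start site is shown because it holds the kappaB motif that NF-kB recognises. RefSeq promoter windows on GRCm38.p6, from 250 bases before to 50 bases after a start site, were found for 7 of the 10 genes (Ikbke, Irf3, Trex1, Tbk1, Nfkbia, Rela and Ikbkg). The kappaB motif occurred on either strand in 8.46% of the 32851 windows of this length. The 7 genes have 11 windows, and the motif was in the Nfkbia window and in 1 of the Trex1 windows. In the Nfkbia window the match lies 29 to 20 bases before the start site, at chr12:55492667-55492676. The stretch of 30 bases around it (chr12:55492657-55492686, minus strand, outside annotated exons) reads, with the match in capitals:
Nfkbia: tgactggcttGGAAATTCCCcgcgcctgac
The E-box CACGTG, found in 7.15% of all windows, was in the Tbk1 window, where it lies after the start site. A match describes the letters only and is not evidence that a factor binds there.

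Total counts ran between 1497843 and 3546852 per library. Mlxipl, which encodes ChREBP, was lower with shChREBP in both genotypes, with log2 fold changes of -0.57 in L-G6pc-/- and -0.55 in L-G6pc+/+ livers (adjusted p = 0.00417 and 0.0129 from edgeR's quasi-likelihood test). G6pc itself was not lower in L-G6pc-/- livers (medians of 276 CPM in shSCR/L-G6pc-/- and 236 CPM in shSCR/L-G6pc+/+, where CPM is a count scaled to the size of its library by TMM), and where its 3' tags lie relative to the deleted part was not tested. So this gene does not check the labels. Within shChREBP/L-G6pc-/- livers, libraries s29, s30, s32 and s33 stood apart on the first principal component of all genes (26.8 to 35.6, against -1.47 to 7.70 in the other 5), with Mlxipl at 216 to 359 CPM against 441 to 500.4 CPM in the other 5. Calls on shChREBP/L-G6pc-/- livers are therefore given with and without these 4 libraries. Leaving them out also removes the libraries with the lowest Mlxipl of the group, and the Mlxipl change without them is not given here.

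With shChREBP in L-G6pc-/- livers, 3 of the 9 genes rose (Polr3d, Ikbkg and Rela) and none fell. Over all 10179 genes tested, 7.56% passed the test in either direction and 3.33% were higher. The median log2 fold change of the 9 genes was 0.33, and that of all genes was 0.01. A gene was called changed at a Benjamini-Hochberg adjusted p under 0.05 over all genes. At an unadjusted p under 0.05, which 22.3% of all genes reached, there were also 3 of the 9. Scaling by library size alone moved the median of all genes to 0.11 and turned the split of calls to 848 higher and 271 lower, against 339 higher and 431 lower with TMM, and it called 3 of the 9 genes as well. Without the 4 libraries that stood apart, none of the 9 genes was called by edgeR (2 were at an unadjusted p under 0.05), and 106 genes were called over the whole table.

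Polr3d encodes a subunit of RNA polymerase III, and it lies on chr14:70438757-70443447 (minus strand). It was measured at 7.77 CPM (lowest), 15.5 CPM (median) and 21.7 CPM (highest) in shChREBP/L-G6pc-/- livers, and at 5.95, 7.86 and 12.6 CPM in shSCR/L-G6pc-/- livers. In L-G6pc+/+ livers it was at 7.34, 11.3 and 14.5 CPM with shChREBP and at 10.5, 12.9 and 18.7 CPM with shSCR. Its counts were low, at 9 to 59 per library. Of the 9 shChREBP/L-G6pc-/- libraries, 7 lay above the highest shSCR/L-G6pc-/- library, and the others lay within the range of that group. How often such a separation occurs over all genes was not tested, here or for the genes below. Polr3d thus rose by 0.86 on the log2 scale with shChREBP in L-G6pc-/- livers (SE 0.20, edgeR adjusted p = 0.0046), or 1.82-fold.

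Polr3d was also the only one of the 9 genes that fell with G6pc deficiency under shSCR. This comparison shares the 8 shSCR/L-G6pc-/- libraries with the rise above, so the fall and the rise are not independent. Their median of 7.86 CPM was the lowest of the groups. All 8 shSCR/L-G6pc-/- libraries lay below the median of shSCR/L-G6pc+/+ livers, and 6 of them lay below its lowest library. The log2 fold change was -0.71 (SE 0.20, adjusted p = 0.04 from edgeR), where 3.23% of all genes passed in either direction and 1.03% were lower. This call was near the threshold, since leaving out any 1 of 10 libraries (s3 to s7, s17, s20 to s22 or s24) ended it, with adjusted p up to 0.0906 and log2 fold changes between -0.74 and -0.64. In shChREBP/L-G6pc-/- livers the gene did not differ by the test from shSCR/L-G6pc+/+ livers (log2 fold change 0.15, 95% interval -0.22 to 0.52, edgeR adjusted p = 0.663), and the direction turned without the 4 libraries that stood apart (-0.12, adjusted p = 0.85).

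In L-G6pc+/+ livers Polr3d had a log2 fold change with shChREBP of -0.34 (SE 0.20, adjusted p = 0.316 from edgeR). The difference between the shChREBP effects in L-G6pc-/- and L-G6pc+/+ livers was 1.20 on the log2 scale (SE 0.28). It also draws on the shSCR/L-G6pc-/- libraries that gave the fall. Its unadjusted p was 0.000109 and its adjusted p 0.0614 from edgeR, so it missed the threshold, which 0.0786% of all genes passed. Scaling by library size alone gave 1.32 with an adjusted p of 0.0292. It was the only one of the 8 other settings past the threshold, and over these 8 the adjusted p ran between 0.0292 and 0.14. The difference was 0.94 without the 4 libraries (adjusted p = 0.14). Leaving out s23, s28 or s31 also brought it past the threshold, with values between 1.28 and 1.32.

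The 4 libraries that stood apart held Polr3d at 14.6 to 21.7 CPM, and the other 5 shChREBP/L-G6pc-/- libraries held it at 7.77 to 17.2 CPM. Without the 4, shChREBP in L-G6pc-/- livers gave a log2 fold change of 0.60 (edgeR adjusted p = 0.228). With G6pc deficiency under shChREBP, Polr3d had a log2 fold change of 0.49 (adjusted p = 0.0882 from edgeR), which scaling by library size alone or leaving out s28 or s31 brought past the threshold (adjusted p = 0.0445, 0.0303 and 0.0349) and which was 0.23 without the 4 libraries. Leaving out any single library kept the call for shChREBP in L-G6pc-/- livers, with log2 fold changes between 0.78 and 0.98.

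Ikbkg encodes NEMO, the regulatory scaffold of the IkB kinase complex, and it lies on chrX:74393290-74453854 (plus strand). It was at 32.7, 47.9 and 73.6 CPM (lowest, median and highest) in shChREBP/L-G6pc-/- livers, and at 24.5, 35.9 and 44.9 CPM in shSCR/L-G6pc-/- livers. The L-G6pc+/+ livers had 30.1, 35.8 and 49.1 CPM with shChREBP and 29.2, 32.99 and 44.3 CPM with shSCR. The shChREBP/L-G6pc-/- group had the highest median but overlapped each of the other groups. Of its 9 libraries, 6 lay above the highest shSCR/L-G6pc-/- library and 3 above the highest shChREBP/L-G6pc+/+ library. Ikbkg rose with shChREBP in L-G6pc-/- livers by 0.52 on the log2 scale (SE 0.14, edgeR adjusted p = 0.018), a fold of 1.43.

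The same gene rose with G6pc deficiency under shChREBP, by 0.46 (SE 0.14, adjusted p = 0.0284 from edgeR), where it was the only one of the 9 genes called and 6.14% of all genes were higher. It was also the only one called in shChREBP/L-G6pc-/- against shSCR/L-G6pc+/+ livers, with a log2 fold change of 0.56 (SE 0.14, adjusted p = 0.00549 from edgeR), where 6.87% of all genes were higher. These comparisons share the shChREBP/L-G6pc-/- libraries. Under shSCR, G6pc deficiency left Ikbkg at a log2 fold change of 0.04 (95% interval -0.26 to 0.35), and shChREBP in L-G6pc+/+ livers at 0.10 (95% interval -0.20 to 0.40). The difference between the shChREBP effects in both genotypes was 0.42 (unadjusted p = 0.0486, adjusted p = 0.412 from edgeR) and did not pass.

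The Ikbkg calls rested on the 4 libraries that stood apart, in which it was at 47.9 to 73.6 CPM against 32.7 to 48.4 CPM in the other 5 of the group. Without them the log2 fold change was 0.20 with shChREBP in L-G6pc-/- livers (edgeR adjusted p = 0.628), 0.15 with G6pc deficiency under shChREBP (adjusted p = 0.558) and 0.25 against shSCR/L-G6pc+/+ livers (adjusted p = 0.401). The difference between the shChREBP effects was then 0.10 (adjusted p = 0.864). Leaving out s32 alone ended the first of these calls (0.43, adjusted p = 0.055 from edgeR). Leaving out s11, s12, s16, s29, s30 or s32 ended the second, with adjusted p between 0.0516 and 0.0691.

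Rela encodes p65, the transactivating NF-kB subunit, and lies on chr19:5637483-5648130 (plus strand). It was at 72.1, 89.3 and 110 CPM in shChREBP/L-G6pc-/- livers, and at 55.5, 62.8 and 101.1 CPM in shSCR/L-G6pc-/- livers. Its values in L-G6pc+/+ livers were 67.2, 91.6 and 118 CPM with shChREBP and 61.7, 82.9 and 106 CPM with shSCR. The shSCR/L-G6pc-/- group had the lowest median, but it overlapped each of the other groups, with 3 of its 8 libraries below the lowest shSCR/L-G6pc+/+ library. All 9 shChREBP/L-G6pc-/- libraries lay above its median. Rela rose with shChREBP in L-G6pc-/- livers by 0.39 on the log2 scale (SE 0.12, adjusted p = 0.0404 from edgeR), or 1.31-fold.

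With G6pc deficiency under shSCR the log2 fold change of Rela was -0.32 (SE 0.13, unadjusted p = 0.0155, adjusted p = 0.192 from edgeR), and only the fit without s17 brought it past the threshold (-0.42, adjusted p = 0.044). The comparison under shSCR shares its shSCR/L-G6pc-/- libraries with the one that gave the rise, so the values are not independent. Against shSCR/L-G6pc+/+ livers, shChREBP/L-G6pc-/- livers had a log2 fold change of 0.07 (95% interval -0.17 to 0.32), and 0.01 without the 4 libraries. The Rela call was the least stable of the 3, since leaving out any 1 of 11 libraries brought its adjusted p to between 0.05 and 0.091 from edgeR. Without the 4 libraries that stood apart it was 0.33 (adjusted p = 0.324).

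**Figure D1:**
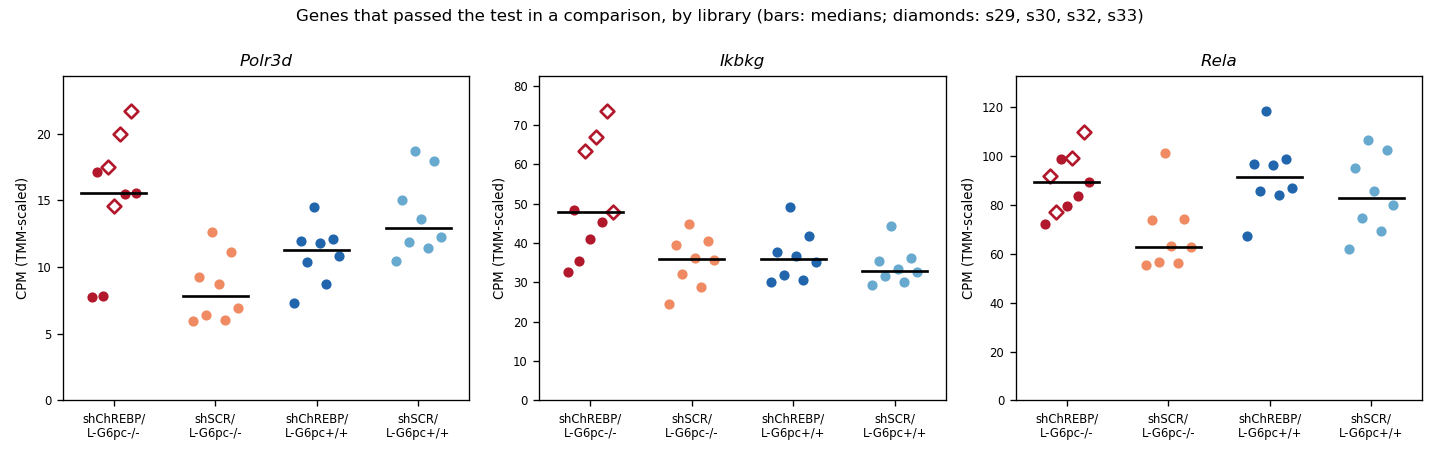
Polr3d, Ikbkg and Rela in CPM (vertical axis, TMM-scaled) for all 33 libraries, split into groups. Points are libraries, bars are group medians and open diamonds are s29, s30, s32 and s33. Polr3d has medians of 15.5 CPM in shChREBP/L-G6pc-/- and 7.86 CPM in shSCR/L-G6pc-/- livers, and 3 of the 4 diamonds are the highest Ikbkg libraries.

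The remaining 6 genes passed the test in none of the comparisons. Tmem173, which encodes STING, lies on chromosome 18 and was measured at low depth, with 3 to 26 counts per library. It was at 2.67, 8.10 and 11.1 CPM in shChREBP/L-G6pc-/- livers, and at 1.75, 6.07 and 7.99 CPM in shSCR/L-G6pc-/- livers. In L-G6pc+/+ livers it was at 4.02, 6.50 and 9.93 CPM with shChREBP and at 4.04, 5.31 and 7.72 CPM with shSCR. Of the first group, 5 of 9 libraries lay above the highest shSCR/L-G6pc-/- library, but its lowest library was also below most of that group. With shChREBP in L-G6pc-/- livers Tmem173 had a log2 fold change of 0.43 (95% interval -0.04 to 0.91, edgeR adjusted p = 0.277).

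Against shSCR/L-G6pc+/+ livers, Tmem173 in shChREBP/L-G6pc-/- livers differed by 0.48 on the log2 scale (unadjusted p = 0.0448, adjusted p = 0.185 from edgeR). The 4 libraries that stood apart were at 8.10 to 11.1 CPM and the other 5 at 2.67 to 9.77 CPM. Without the 4, the values were 0.15 with shChREBP in L-G6pc-/- livers and 0.20 against shSCR/L-G6pc+/+ livers. Cgas, which encodes the sensor upstream of STING, was below the filter, with 1 to 15 counts per library. It was at 1.57 to 5.83 CPM in shChREBP/L-G6pc-/- and 0.557 to 3.96 CPM in shSCR/L-G6pc-/- livers. In L-G6pc+/+ livers it was at 0.575 to 6.18 CPM with shChREBP and 1.36 to 4.11 CPM with shSCR. Fitted without the filter, Cgas had a log2 fold change of 0.59 with shChREBP in L-G6pc-/- livers (unadjusted p = 0.124, adjusted p = 0.544 from edgeR).

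Tbk1 and Ikbke encode the related kinases TBK1 and IKK-epsilon, which phosphorylate IRF3. Tbk1 (chr10:121546455-121586787, minus strand) was at 10.7, 15.5 and 20.3 CPM in shChREBP/L-G6pc-/- and at 7.79, 11.5 and 21.8 CPM in shSCR/L-G6pc-/- livers. Of the first group, 8 of 9 libraries lay above the median of the second, but none lay above its highest library. The log2 fold change was 0.32 (95% interval -0.08 to 0.72, edgeR adjusted p = 0.348). The same comparison gave 0.31 when the 4 libraries that stood apart were left out. In L-G6pc+/+ livers Tbk1 was at 5.75, 16.1 and 25.98 CPM with shChREBP and at 10.02, 13.2 and 19.99 CPM with shSCR, with a log2 fold change of 0.23 (95% interval -0.17 to 0.63).

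Ikbke (chr1:131254343-131279606, minus strand) was at 11.2, 16.4 and 23.6 CPM in shChREBP/L-G6pc-/- and at 8.35, 13.9 and 20.03 CPM in shSCR/L-G6pc-/- livers. These ranges overlapped, with 3 of 9 libraries of the first group above the highest of the second. The log2 fold change was 0.33 (95% interval -0.02 to 0.67, edgeR adjusted p = 0.251). It was 0.10 without the 4 libraries, in which Ikbke was at 16.4 to 23.6 CPM. In L-G6pc+/+ livers it was at 10.3, 13.9 and 18.1 CPM with shChREBP and at 10.045, 13.7 and 16.7 CPM with shSCR.

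Irf3 encodes the transcription factor that TBK1 activates and lies on chr7:44997648-45002848 (plus strand). It was at 15.8, 21.6 and 27.2 CPM in shChREBP/L-G6pc-/- and at 13.9, 17.8 and 29.3 CPM in shSCR/L-G6pc-/- livers, and in L-G6pc+/+ livers at 17.9, 21.5 and 28.8 CPM with shChREBP and at 12.6, 19.9 and 26.03 CPM with shSCR. All 4 groups overlapped over most of their ranges. Its log2 fold changes were 0.17 with shChREBP in L-G6pc-/- livers (95% interval -0.13 to 0.47), 0.15 with shChREBP in L-G6pc+/+ livers (-0.15 to 0.46), -0.04 with G6pc deficiency under shChREBP (-0.34 to 0.26) and -0.06 under shSCR (-0.37 to 0.25). Without s29, s30, s32 and s33 the first of these was 0.22 and the third 0.01.

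Nfkb1 encodes p105, the precursor of the NF-kB subunit p50, and lies on chr3:135584655-135691547 (minus strand). It was at 10.96, 14.2 and 18.8 CPM in shChREBP/L-G6pc-/- and at 8.76, 14.2 and 20.03 CPM in shSCR/L-G6pc-/- livers. In L-G6pc+/+ livers it was at 13.0, 18.0 and 21.5 CPM with shChREBP and at 11.6, 12.8 and 19.2 CPM with shSCR. Here the shChREBP/L-G6pc+/+ group was the high one, and all 8 of its libraries lay above the shSCR/L-G6pc+/+ median. The log2 fold change with shChREBP was 0.32 in L-G6pc+/+ livers (unadjusted p = 0.0376, edgeR adjusted p = 0.197) and 0.06 in L-G6pc-/- livers (95% interval -0.24 to 0.35), where it was 0.20 without the 4 libraries that stood apart.

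Nfkbia encodes IkB-alpha, the inhibitor of NF-kB whose promoter stretch is printed above, and lies on chr12:55489410-55492647 (minus strand). It was at 309, 397 and 491 CPM in shChREBP/L-G6pc-/- and at 308, 376 and 551 CPM in shSCR/L-G6pc-/- livers. In L-G6pc+/+ livers it was at 306, 505 and 862 CPM with shChREBP and at 310, 426 and 582 CPM with shSCR. The L-G6pc-/- groups covered nearly the same range, and the highest libraries of all were 2 of shChREBP/L-G6pc+/+ livers. Nfkbia had a log2 fold change with shChREBP of -0.01 in L-G6pc-/- livers (95% interval -0.35 to 0.32, edgeR adjusted p = 0.975).

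With shChREBP in L-G6pc+/+ livers, Nfkbia had a log2 fold change of 0.35 (unadjusted p = 0.0447, adjusted p = 0.219 from edgeR). With G6pc deficiency under shChREBP it was -0.45 (SE 0.16, unadjusted p = 0.00865, adjusted p = 0.0654 from edgeR), and all 9 shChREBP/L-G6pc-/- libraries lay below the shChREBP/L-G6pc+/+ median. Leaving out s12 or s14 brought this past the threshold (adjusted p = 0.0262 and 0.0449), while over the 9 other settings the adjusted p ran between 0.0646 and 0.224. Without the 4 libraries that stood apart, Nfkbia was at -0.39 in this comparison and at 0.05 with shChREBP in L-G6pc-/- livers. The difference between the shChREBP effects in both genotypes was -0.36 (95% interval -0.84 to 0.11).

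**Figure D2:**
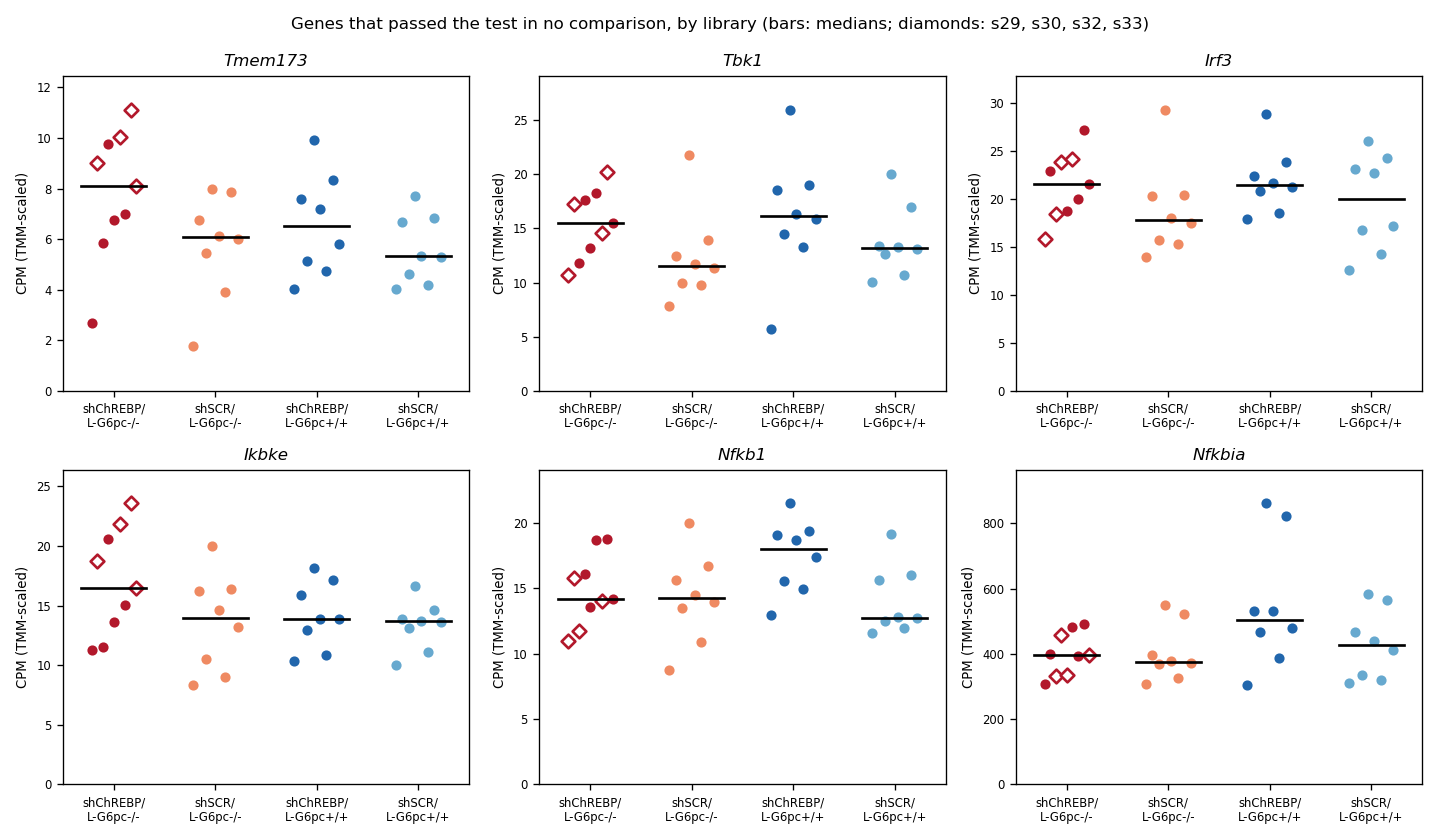
Tmem173, Tbk1, Irf3, Ikbke, Nfkb1 and Nfkbia in CPM (vertical axes, TMM-scaled) for all 33 libraries, split into groups. Points are libraries, bars are group medians and open diamonds are s29, s30, s32 and s33. The ranges of all 4 groups overlap for each gene, and 2 shChREBP/L-G6pc+/+ libraries are the highest for Nfkbia, reaching 862 CPM.

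By comparison, shChREBP in L-G6pc+/+ livers changed 0 of the 9 genes, where 5.39% of all genes passed. At an unadjusted p under 0.05, reached by 21.5% of all genes, there were 2 (Nfkb1 and Nfkbia), and DESeq2 and limma-voom also called 0. The median log2 fold change of the 9 genes was 0.15, and that of all genes was 0.03. G6pc deficiency under shSCR changed 1 of 9 (Polr3d, lower), with a median of -0.06, and G6pc deficiency under shChREBP changed 1 of 9 (Ikbkg, higher), with a median of -0.04, where 11% of all genes passed in either direction. In shChREBP/L-G6pc-/- against shSCR/L-G6pc+/+ livers 1 of 9 was called (Ikbkg), where 13.2% of all genes passed. The difference between the shChREBP effects in both genotypes passed for 0 of 9 genes with edgeR, DESeq2 and limma-voom, with 2 at an unadjusted p under 0.05 (Polr3d and Ikbkg), which 12% of all genes reached.

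**Figure D3:**
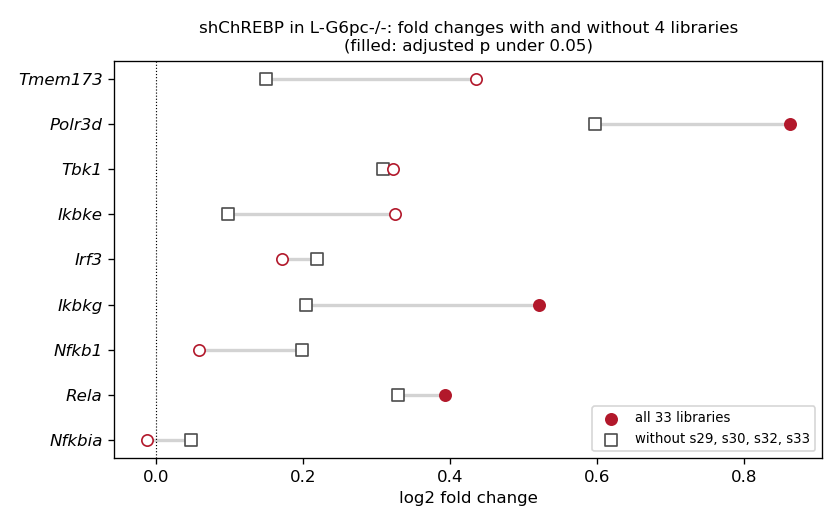
Log2 fold changes (horizontal axis) of the 9 genes with shChREBP in L-G6pc-/- livers, from all 33 libraries (circles) and without s29, s30, s32 and s33 (squares), filled where the adjusted p was under 0.05. Ikbkg moves to 0.20 without the 4 libraries, against 0.52 with them, whereas Rela moves only to 0.33, against 0.39.

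Within groups, most pairs of these genes showed little correlation. After the group means were subtracted from log2 CPM, the highest Pearson r between any 2 of the 9 genes over the 33 libraries was 0.70 between Rela and Nfkbia, followed by 0.41 between Ikbkg and Polr3d. The lowest was -0.30 between Nfkb1 and Nfkbia. The 4 libraries that stood apart had higher medians of both Ikbkg and Polr3d. These were 65.2 and 18.7 CPM, against 41.0 and 15.4 CPM in the other 5 of their group. The r of this pair without the 4 was not computed. All these r values are descriptions, and the libraries also share depth and scaling.

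Among all genes with a mean of at least 5 CPM, those most like Ikbkg over the 33 libraries were Ugdh (r = 0.76), Htatip2 (0.71), Srxn1 (0.69), Eif6 (0.69) and Lmna (0.69). Without the 4 libraries that stood apart, r with Srxn1 was 0.31 and with Ugdh 0.56 over 29 libraries. Those most like Rela were Zfp276 (0.75), Slc34a2 (0.74), Arpc1b (0.72), the macrophage marker Cd68 (0.71) and Smarca4 (0.71). For Nfkbia they were Gng12 (0.76), Lifr (0.73), Dsc2 (0.73), Zfp276 (0.71) and Rela itself (0.70).

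For Polr3d they were Psmd7 (0.66), Gstm2 (0.62), Gbe1 (0.60), Cyp2c38 (0.60) and Ercc6l2 (0.59). Without the 4 libraries that stood apart, r of Polr3d with these genes ran between 0.50 and 0.56 over 29 libraries. For Tmem173 they were Tex264 (0.72), Rap2b (0.69), Lcp2 (0.62), Gm8995 (0.61) and Irf8 (0.61), of which Lcp2 and Irf8 are known from leukocytes. The genes most like Tbk1 were led by Il10rb (0.74), those like Irf3 by Chchd4 (0.70), those like Ikbke by Dtnb (0.62) and those like Nfkb1 by Nectin1 (0.65).

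Around these genes, 93 tested genes of 8 further pathway lists were examined, and with shChREBP in L-G6pc-/- livers 15 of them rose and none fell, with a median log2 fold change of 0.28. Over all genes 3.33% were higher there and the median was 0.01. The interferon list below gave 7 of the 15. Of the genes that IRF3 and interferon induce, 7 of 16 rose and the list's median was 0.68. The 4 with the smallest p were Cxcl10, a chemokine that draws T cells (log2 fold change 1.57), Ifit3, which restrains viral RNA (1.16), Ifi44 (1.32) and Isg15, a ubiquitin-like protein (1.39). Cxcl10 was at 3.42, 16.5 and 27.6 CPM in shChREBP/L-G6pc-/- and at 1.998, 4.74 and 8.79 CPM in shSCR/L-G6pc-/- livers. Without the 4 libraries that stood apart, 1 of the 16 was called (Cxcl10, 1.32, adjusted p = 0.0237 from edgeR), where 36 of 10399 genes were higher. The list's median was then 0.40.

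Of the DNA sensors and inflammasome genes, 3 of 8 rose with shChREBP in L-G6pc-/- livers, where 3.33% of all genes were higher. They were Zbp1, a sensor of Z-form nucleic acid (1.08), and Ifi204 (0.71) and Ifi203 (0.59), which belong to the same family as AIM2. Zbp1 was at 5.86, 18.8 and 36.8 CPM in shChREBP/L-G6pc-/- and at 4.66, 8.21 and 17.3 CPM in shSCR/L-G6pc-/- livers. It rose in L-G6pc+/+ livers too (1.39, adjusted p = 0.00426 from edgeR), with 7.53, 14.01 and 21.8 CPM under shChREBP and 4.57, 5.53 and 7.78 CPM under shSCR. None of the sensor list was called in L-G6pc-/- livers without the 4 libraries (3 were at an unadjusted p under 0.05), where Zbp1 was at 0.45.

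With shChREBP in L-G6pc-/- livers, 3.33% of all genes were higher. There, 1 of 7 cytosolic RNA sensing genes rose (Ddx58, which encodes RIG-I, 0.46). So did 1 of 11 TBK1 adaptors and regulators (Irf7, an interferon-inducible relative of IRF3, 0.84). Neither was called without the 4 libraries. The other 12 RNA polymerase III subunits gave 0 calls in that comparison with edgeR, with 2 at an unadjusted p under 0.05 and a median of -0.05, beside the 0.86 of Polr3d. The 10 tested genes that remove nucleic acids also gave 0 calls, with 4 at an unadjusted p under 0.05 and a median of 0.24.

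In the NF-kB lists, the 12 other subunits, kinases and inhibitors gave 0 calls with shChREBP in L-G6pc-/- livers (2 at an unadjusted p under 0.05, median 0.06). Of 17 NF-kB target genes 3 rose, where 3.33% of all genes were higher, and the list's median was 0.31. The 3 were Tnip1, an A20-binding inhibitor of NF-kB (0.87), the survival gene Bcl2l1 (0.59) and the adhesion molecule Vcam1 (0.66). None of these was called without the 4 libraries. Tnf, Il6 and Tnfaip3 were below the filter on low counts.

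With G6pc deficiency under shChREBP, 9 of 16 interferon targets rose with a median of 0.84, where 6.14% of all genes were higher. Without the 4 libraries, 6 of 16 rose with a median of 0.54, where 551 of 10399 genes were higher. With all libraries, 3 of the 12 NF-kB subunits, kinases and inhibitors fell in the same comparison, as did 4.9% of all genes. These were Chuk, which encodes the IKK-alpha kinase (-0.44), Nfkbiz, an atypical IkB (-0.99), and Map3k7, which encodes the upstream kinase TAK1 (-0.28). Chuk was at 59.6, 68.9 and 78.2 CPM in shChREBP/L-G6pc-/- and at 57.5, 92.1 and 115 CPM in shChREBP/L-G6pc+/+ livers. Chuk and Nfkbiz were called without the 4 libraries too (-0.37 and -1.07, adjusted p = 0.0437 and 0.029 from edgeR), and Map3k7 was not. Polr3c, another RNA polymerase III subunit, rose (0.70), also without the 4 libraries (0.84).

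In shChREBP/L-G6pc-/- against shSCR/L-G6pc+/+ livers, 13 of 16 interferon targets rose with a median of 1.31, and 8 of 16 did without the 4 libraries, with a median of 0.90. Over all genes, 6.87% were higher there, and 175 of 10399 were higher without the 4 libraries. Usp18, which curbs interferon signalling, had the smallest p of the list there (1.54, and 1.31 without the 4). It was at 31.7, 49.8 and 74.9 CPM in shChREBP/L-G6pc-/- and at 15.6, 18.2 and 23.8 CPM in shSCR/L-G6pc+/+ livers. Usp18 and the guanylate-binding protein gene Gbp3 also rose with G6pc deficiency under shSCR (0.80 and 0.996), where 2.2% of all genes were higher. In L-G6pc+/+ livers shChREBP raised 1 of 16 interferon targets (Irf1, 0.64), where 2.16% of all genes were higher. It raised 3 of 16 when the 4 libraries were left out of the fit, where 315 of 10399 genes were higher. The difference between the shChREBP effects passed for none of the 93 genes with edgeR, and 0 to 4 genes per list were at an unadjusted p under 0.05.

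**Figure D4:**
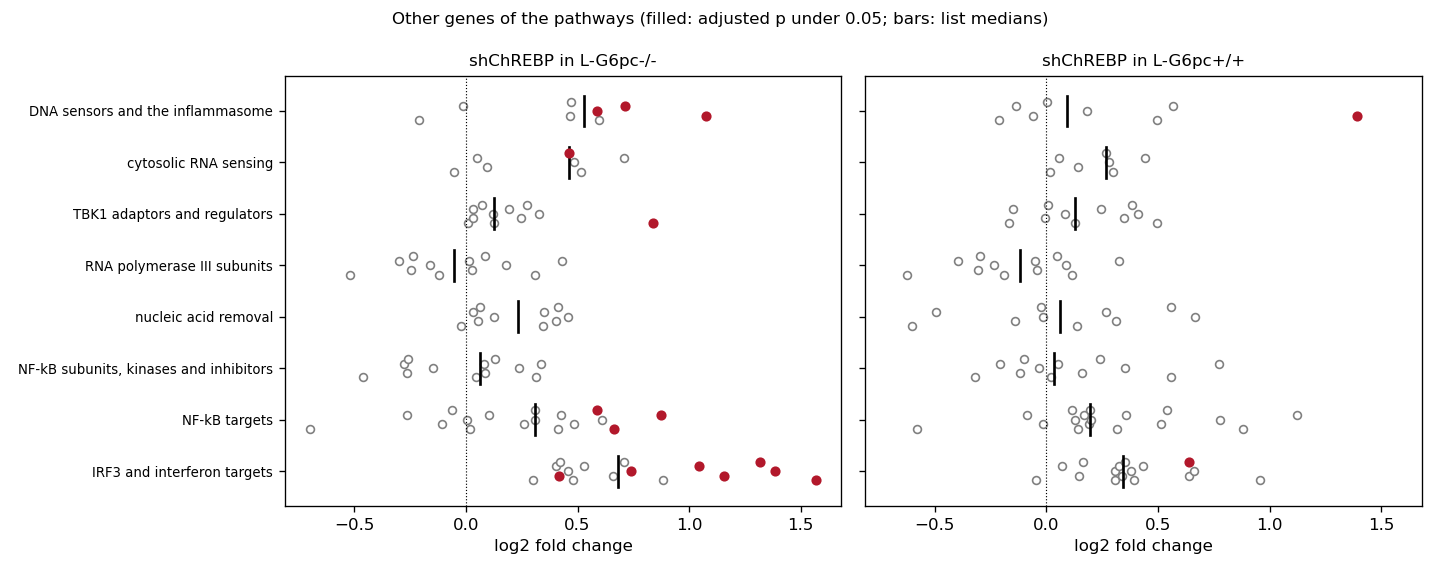
Log2 fold changes (horizontal axis) with shChREBP in L-G6pc-/- (left) and L-G6pc+/+ livers (right) for the tested genes of 8 pathway lists, with a circle per gene, filled where the adjusted p was under 0.05, and a bar at each list's median. The interferon targets have medians of 0.68 on the left and 0.34 on the right.

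Markers of other cells moved beside these results. Of 12 Kupffer cell and macrophage markers, 3 rose with shChREBP in L-G6pc-/- livers (Clec4f, C1qa and C1qc), where 3.33% of all genes were higher. The summed level of the 12 was 1638 to 2522 CPM in shChREBP/L-G6pc-/- and 1031 to 2465 CPM in shSCR/L-G6pc-/- livers. In L-G6pc+/+ livers it was 1114 to 2938 CPM with shChREBP and 1122 to 1923 CPM with shSCR. With shChREBP in L-G6pc+/+ livers none of the 12 was called, with a median log2 fold change of 0.28, against 0.35 in L-G6pc-/- livers. In each genotype 5 of the 12 were at an unadjusted p under 0.05 from edgeR. With shChREBP in L-G6pc-/- livers none of 10 stellate cell (median 0.31) or 9 sinusoidal endothelial markers (median 0.17) was called. Nor was any tested marker of neutrophils (3, median 0.40), cholangiocytes (2, median 0.30) or B cells (1, at 0.47). Of 8 hepatocyte markers 3 fell with shChREBP in L-G6pc-/- livers (Alb, Ttr and Fgb), where 4.23% of all genes were lower. In L-G6pc+/+ livers none of the 8 was called with shChREBP, with a median of -0.12. The sums of the 8 were 12832 to 24066 CPM in shChREBP/L-G6pc-/- and 19183 to 27360 CPM in shSCR/L-G6pc-/- livers. The 8 markers of T and NK cells were all below the filter, with sums of 3.42 to 11.01 CPM and 2.44 to 11.7 CPM, and none of the macrophage or hepatocyte markers was at 0 in all libraries. Without the 4 libraries none of the 12 macrophage markers was called with shChREBP in L-G6pc-/- livers by edgeR (4 at an unadjusted p under 0.05, median log2 fold change 0.12, against 0.35 with them), and none of the 8 hepatocyte markers (2 at an unadjusted p under 0.05, median -0.22 against -0.34). The part of these cells in the results was not tested.

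Exons of Ikbkg overlap those of G6pdx on the opposite strand over 418 bases, 25675 bases before the Ikbkg 3' end, and G6pdx was at 0 to 6.68 CPM over the libraries. Irf3 shares 88 exonic bases with Bcl2l12 and Ikbke shares 65 with Gm28913 and 159 with Gm28914, all on opposite strands. The sources used here do not give a strand setting for the counting, so such reads cannot be told apart.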

How the data were processed

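Liver RNA of 33 libraries was measured by 3' QuantSeq. Per the paper's methods and the submitters' processing notes, the authors used HISAT for alignment to GRCm38, SAMtools for sorting and HTSeq for gene counts, with versions not given in the sources used here. The authors deposited a raw count per gene and library, and a normalized table (unit: signal, 11125 genes) of linear values. Each is the count plus 0.5, over a library-specific constant, and its log2 was used as an alternative.

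The deposited counts were fitted with edgeR 4.0.16 under R 4.3.3, and with limma 3.58.1 and DESeq2 1.42.0 as alternatives. Genes were named from GENCODE M21 (25817 of 25988). filterByExpr (minimum count 10, minimum total 15) kept 10179 genes. After TMM scaling, all 4 groups were fitted together with edgeR's quasi-likelihood test, two-sided, and p-values were adjusted by Benjamini-Hochberg over all genes, with a threshold of 0.05. Standard errors (SE) are not edgeR output. Each was derived as the absolute log2 fold change over the square root of the F value of the test. The 95% intervals were built from this SE with a t quantile. Log2 CPM used a prior count of 2. Gene counts of 3 to 26 per library for Tmem173, against 491 to 2094 for Nfkbia, set the precision. The fit was tested on simulated data. Named beside the 9 genes were Mlxipl, G6pc, up to 4 called genes of smallest p per list, and the 5 genes of highest r for likeness. The genes and lists were chosen with earlier results of these data known, as were the libraries left out together (s29, s30, s32 and s33, or s9 and s13). The other alternatives were library size scaling, no filter, only the 2 groups compared, each library left out, and Gm42418, the gene with the most counts, left out.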

Additional observations from a re-analysis of the deposited data

Results flagged for a closer look

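Of 36 groups of values (9 genes in 4 groups), 4 held a library far above the rest of its group, where chance gives about 1 in 20. In shSCR/L-G6pc-/- livers, library s17 was at 21.8 CPM for Tbk1 (next highest 13.9 CPM) and at 101.1 CPM for Rela (next highest 74.0 CPM), and library s18 was at 29.3 CPM for Irf3 (next highest 20.4 CPM). In shSCR/L-G6pc+/+ livers, library s1 was at 44.3 CPM for Ikbkg (next highest 36.2 CPM).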

How the results depend on the processing

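No paired analysis was possible because the groups share no replicate numbers. For shChREBP in L-G6pc-/- livers, where 3 of the 9 genes were called, fitting only the 2 groups compared called 1 (Polr3d) and leaving out s29, s30, s32 and s33 together called 0. Leaving out 1 library at a time called 1 to 3. For G6pc deficiency under shSCR, where 1 was called, limma-voom and the fit with no filter on low counts called 0, and leaving out 1 library called 0 to 1. For G6pc deficiency under shChREBP, where 1 was called, library size scaling called 2, and fitting only the 2 groups compared, leaving out the 4 libraries together and leaving out s9 and s13 together each called 0, with 0 to 2 when 1 library was left out. For shChREBP/L-G6pc-/- against shSCR/L-G6pc+/+ livers, where 1 was called, leaving out the 4 libraries called 0. For the difference between genotypes, where 0 were called, library size scaling called 1 (Polr3d), and leaving out 1 library called 0 to 1. For shChREBP in L-G6pc+/+ livers every setting run called 0. No called fold change of the 9 genes reversed in any setting run. Why the 4 libraries differ from the rest of their group was not tested. Counts per library of 3 to 26 for Tmem173 and of 9 to 59 for Polr3d limit what can be seen for these genes.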
